A study of Mus musculus with 4 samples.

Results

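The genes described here are 8 markers of the scavenging lining of the liver sinusoid, Stab1, Stab2, Lyve1, Fcgr2b, Mrc1, Clec4g, Oit3 and Dnase1l3, chosen by their gene symbols among the 32285 genes counted in nuclei of injured mouse liver. All 8 were found. Single-nucleus RNA sequencing had been carried out on 4 libraries from livers of male mice that received DDC, which damages the bile ducts, in their food for 4 weeks, beginning when they were 10 to 11 weeks old. In the 2 CKO libraries Rbpj, the DNA-binding partner of Notch receptors, was deleted in hepatic progenitor cells, and the 2 WT libraries came from wild-type mice given the same diet. The Cre line that directs the deletion is not given in the sources used here. No label states that replicates of a genotype are different animals, so each p-value below measures only the spread between these libraries. The series title links the deletion to endothelial responses and fibrosis, which is the question behind comparing these endothelial genes between the genotypes.

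Sinusoidal endothelial cells line the liver's capillaries and take up waste from blood by receptor-mediated endocytosis. Stab2 and Lyve1 bind hyaluronan, and Stab1 is a scavenger receptor. The mannose receptor Mrc1 binds glycoproteins and collagen fragments, Fcgr2b removes small immune complexes, and Clec4g is a C-type lectin. Resident macrophages of the sinusoid, the Kupffer cells, share part of this equipment and take up larger particles. Oit3, with a zona pellucida domain, and Dnase1l3, a nuclease of extracellular DNA, are secreted rather than receptors, and they belong to the group as products typical of the same cells.

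The gene bounds are those of GENCODE on GRCm38. Stab1 is at chr14:31139013-31168641 (minus strand), Stab2 at chr10:86841198-87008025 (minus), Lyve1 at chr7:110850607-110863239 (minus) and Fcgr2b at chr1:170958617-170976547 (minus). Mrc1 is at chr2:14229392-14332057 (plus), Clec4g at chr8:3707064-3720651 (minus), Oit3 at chr10:59422958-59441778 (minus) and Dnase1l3 at chr14:7964533-7994573 (minus). Stab1 overlaps Nt5dc2 on the other strand, and Stab2, Fcgr2b and Clec4g overlap antisense or pseudogene transcripts there. The counting of strand and introns is not given in the sources used here, so the counts of these 4 genes are uncertain to the extent that reads of such partners were not told apart. Gm16271, antisense to Stab2, was among the 10 leading genes of an endothelial cluster, as was Stab2 itself. Fcgr2b has close relatives in Fcgr3 and Fcgr4, and its counts are uncertain to that extent too.

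The promoters of 4 genes are shown because these genes differ in the cells that carried them: Stab2, read mainly in endothelial nuclei, and Stab1, Fcgr2b and Mrc1, read in endothelial and macrophage nuclei. Each runs from 250 bases before to 50 after the RefSeq start in GRCm38.p6, and the strand shown is that of the gene. The regions are chr10:87007893-87008192 (Stab2, minus), chr14:31168592-31168891 (Stab1, minus), chr1:170976022-170976321 (Fcgr2b, minus) and chr2:14229164-14229463 (Mrc1, plus). Capitals mark matches to TGCTGA, a half-site of MAF factors, or to GGAAGT, a core bound by ETS factors, with both strands searched.
Stab2 promoter: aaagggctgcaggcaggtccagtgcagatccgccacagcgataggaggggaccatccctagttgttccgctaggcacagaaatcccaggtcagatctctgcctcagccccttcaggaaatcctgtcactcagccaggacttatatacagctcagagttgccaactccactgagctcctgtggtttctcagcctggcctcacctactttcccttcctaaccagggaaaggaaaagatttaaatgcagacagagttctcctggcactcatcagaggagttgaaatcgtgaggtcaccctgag
Stab1 promoter: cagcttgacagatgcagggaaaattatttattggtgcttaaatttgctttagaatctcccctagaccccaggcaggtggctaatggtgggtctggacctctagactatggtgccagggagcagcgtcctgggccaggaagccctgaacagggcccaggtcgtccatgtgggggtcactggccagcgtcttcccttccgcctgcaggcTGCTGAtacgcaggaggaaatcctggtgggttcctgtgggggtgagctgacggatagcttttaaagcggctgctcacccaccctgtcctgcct
Fcgr2b promoter: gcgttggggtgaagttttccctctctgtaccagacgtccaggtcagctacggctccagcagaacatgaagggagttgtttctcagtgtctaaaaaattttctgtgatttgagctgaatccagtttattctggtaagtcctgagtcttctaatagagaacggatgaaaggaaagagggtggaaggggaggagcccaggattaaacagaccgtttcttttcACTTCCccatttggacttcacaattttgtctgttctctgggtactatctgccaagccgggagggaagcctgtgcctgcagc
Mrc1 promoter: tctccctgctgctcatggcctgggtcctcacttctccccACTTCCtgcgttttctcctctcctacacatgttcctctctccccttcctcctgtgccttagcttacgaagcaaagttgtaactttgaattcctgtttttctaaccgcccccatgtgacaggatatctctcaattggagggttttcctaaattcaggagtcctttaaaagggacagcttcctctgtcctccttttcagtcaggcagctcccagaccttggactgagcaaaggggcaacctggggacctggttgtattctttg
The MAF half-site of Stab1 began at position -43 from its start. Fcgr2b and Mrc1 held the ETS letters on the opposite strand, at positions -31 and -211. Neither word, nor AGATAA of the GATA type, was found in Stab2 or in Clec4g, whose promoter was also searched. Of 32851 promoters of this length, 23.8% held GGAAGT, 19.5% TGCTGA and 11.2% AGATAA, so such matches are common and describe letters, not binding. No promoter of Lyve1, Oit3 or Dnase1l3 was matched.

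The CKO libraries held 38003108 and 12261329 UMIs (unique transcripts counted) in 16000 and 5184 barcodes, and the WT libraries 45620141 and 13914845 UMIs in 16000 and 6480 barcodes, replicate 1 before replicate 2 here and in all value pairs below. Median depth was 1722 to 2267 UMIs per barcode, and 19 to 114 barcode sequences were shared between libraries, pair by pair. After removal of likely doublets 39017 of 43664 barcodes were clustered with the 8 genes left out. Clusters were named by other markers raised at least 1.5 times over the barcodes in the lowest 10% of UMIs. Endothelial nuclei were then divided into 1831 sinusoid-like nuclei (601 and 118 in CKO, 944 and 168 in WT) and 476 vessel-like nuclei (151 and 21 in CKO, 257 and 47 in WT). Macrophage-like nuclei numbered 5088 (2091 and 157 in CKO, 2459 and 381 in WT), of which 3296 were named Kupffer-like. That name needed Clec4f, Vsig4 and Cd5l raised over the same low barcodes, not over the other macrophages. In Kupffer-like sub-clusters 0, 2 and 7 (897, 327 and 286 nuclei) none of these markers was raised 1.5 times over the other macrophage-like nuclei. Rbpj, counted over the whole gene by 3′ tags that do not single out the deleted part, stood at 75.3 CPM (69 UMIs; CPM scales the UMIs of a gene to all UMIs of the class) and 16.6 CPM (1 UMI) in CKO and at 74.8 and 70.2 CPM in WT cholangiocyte-like nuclei, the named class nearest to progenitor cells.

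Libraries stood apart in the clustering. Of 703 nuclei in endothelial cluster 4, 700 came from CKO replicate 1, while cluster 11 (1527 nuclei) held 138 nuclei of CKO replicate 2, 1157 of WT replicate 1 and 213 of WT replicate 2. Macrophage cluster 0 (2075 nuclei) held 2070 of CKO replicate 1, cluster 2 (130 nuclei, with the hepatocyte gene Mup1 among its leading genes) came wholly from CKO replicate 2, and cluster 1 (2883 nuclei) held 2454 and 381 of the WT libraries. Free RNA, estimated from unnamed barcodes scaled to 4 secreted hepatocyte transcripts, made up 81.3% and 83.8% of UMIs in CKO and 72.8% and 76.8% in WT sinusoid-like nuclei. CKO replicate 1 thus stood apart from the WT libraries in both classes, whereas CKO replicate 2 shared endothelial cluster 11 with them and stood apart in the macrophages.

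All 8 genes had their highest mean level in sinusoid-like nuclei among the classes with nuclei in all 4 libraries. Fewer nuclei of a type within a class and less RNA per nucleus cannot be told apart in such sums. The levels are CPM of counts summed over the nuclei of a class, not divided by gene length, so they are compared between classes and not between genes. Because classes came from clusters, these levels are a description without a test. Ratios to free RNA, here and below, use its level in the unnamed barcodes, not scaled to the share estimated for a class. Against each library's own free RNA profile, the median ratio in sinusoid-like nuclei was 23.5 for Stab2, 13.0 for Dnase1l3, 11.0 for Stab1, 9.95 for Oit3, 9.83 for Clec4g, 7.57 for Mrc1, 6.39 for Fcgr2b and 5.19 for Lyve1.

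**Figure D1:**
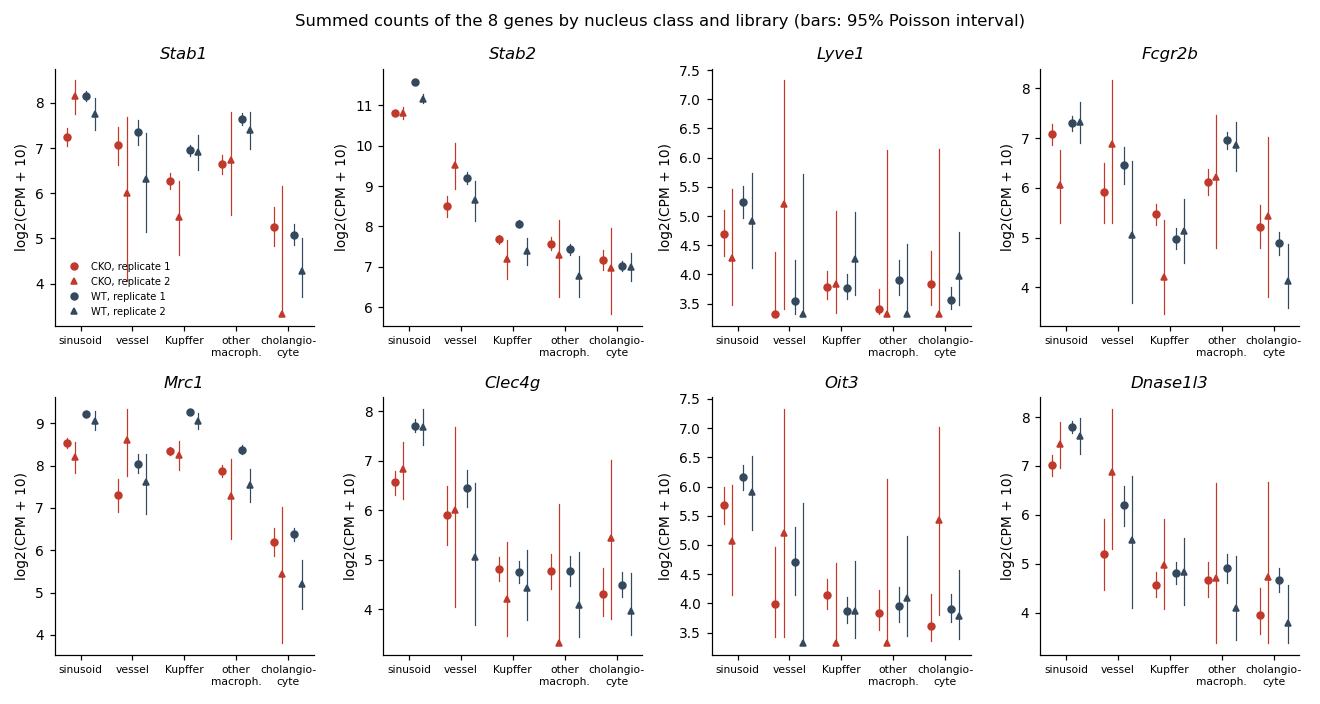
Level of each of the 8 genes as log2(CPM + 10) in sinusoid-like, vessel-like, Kupffer-like, other macrophage-like and cholangiocyte-like nuclei, with 1 point per library (CKO red, WT dark blue) and a 95% Poisson interval of the counts, which covers counting error only. Stab2, Clec4g and Dnase1l3 are highest in sinusoid-like nuclei in every library, while Mrc1 is about as high in Kupffer-like as in sinusoid-like nuclei.

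Stab2, the hyaluronan and waste receptor typical of sinusoidal endothelium, had 1784 CPM in each CKO library and 3070 and 2295 CPM in the WT libraries in sinusoid-like nuclei. Both CKO values lay below both WT values. Over the 4 libraries the mean was 2233 ± 608 CPM (SD) in sinusoid-like, 514 ± 175 CPM in vessel-like and 172 ± 42.9 CPM in macrophage-like nuclei, and 122 ± 8.3 CPM in cholangiocyte-like nuclei, a type that should lack it. On the log2(CPM + 10) scale sinusoid-like nuclei stood 2.12 ± 0.57 above vessel-like and 3.62 ± 0.35 above macrophage-like nuclei (SD, n = 4). Below vessel-like nuclei the order was T and NK-like (194 ± 50.4 CPM), macrophage-like, mesenchymal-like (161 ± 19.7), cholangiocyte-like, dendritic-like (116 ± 107), mesothelial-like (116 ± 79.9) and B-like (111 ± 129), and most neighbours in that order lay within 1 SD of each other.

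Clec4g, a lectin of sinusoidal endothelium also called LSECtin, had 84.5 and 104 CPM in CKO and 199 and 197 CPM in WT sinusoid-like nuclei. The genotypes did not overlap, and the WT libraries were almost equal. Its mean was 146 ± 60.4 CPM in sinusoid-like and 51.2 ± 22.4 CPM in vessel-like nuclei (SD, n = 4), a difference of 1.34 ± 0.90 on the log2(CPM + 10) scale, above 0 in 4 of 4 libraries. In macrophage-like nuclei it averaged 12.8 ± 5.4 CPM, a median of 0.86 times the free RNA level, so it was read there as background. The remaining named classes with nuclei in all libraries lay between 8.93 (T and NK-like) and 57.8 CPM (B-like, SD 81.7, on 10 UMIs), with spreads that overlap.

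Dnase1l3, whose product digests DNA of dead cells in blood, had 119 and 165 CPM in CKO and 213 and 187 CPM in WT sinusoid-like nuclei, with no overlap of the genotypes. Sinusoid-like nuclei averaged 171 ± 39.8 CPM against 58.1 ± 36.8 CPM in vessel-like nuclei, and the log2(CPM + 10) difference was 1.53 ± 0.68, above 0 in 4 of 4 libraries. Macrophage-like nuclei, at 16.8 ± 3.2 CPM, were at a median of 1.17 times the free RNA level (0.73 to 2.19 over the libraries). T and NK-like nuclei had a mean of 50.6 ± 49.1 CPM on 13 UMIs, and the other classes averaged 8.72 to 31.1 CPM.

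Oit3, a secreted liver protein, had 41.5 and 23.5 CPM in CKO and 61.6 and 50.0 CPM in WT sinusoid-like nuclei. The genotypes did not overlap, and the CKO replicate 2 value rests on 5 UMIs. The mean was 44.2 ± 16.0 CPM in sinusoid-like nuclei, against 12.3 ± 11.9 CPM in vessel-like nuclei (13 UMIs in all). Macrophage-like nuclei had 4.24 CPM, a median of 0.75 times the free RNA level (0 to 1.95 over the libraries). The other classes averaged 1.01 to 13.1 CPM.

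Lyve1, the hyaluronan receptor first known from lymphatic vessels, had the fewest counts of the 8, with 422 UMIs in all barcodes. Sinusoid-like nuclei had 15.8 and 9.41 CPM in CKO (21 and 2 UMIs) and 28.0 and 20.01 CPM in WT (61 and 6 UMIs). The CKO libraries were the lower ones, on few UMIs. Vessel-like nuclei held 2 UMIs in all. Macrophage-like nuclei stood at a median of 1.251 times the free RNA level (0.65 to 1.76 over the libraries). Below sinusoid-like nuclei no order of classes could be read at this depth.

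Stab1, a scavenger receptor of sinusoids and of macrophages, had 142 and 273 CPM in CKO and 276 and 207 CPM in WT sinusoid-like nuclei. The CKO libraries stood on either side of WT replicate 2, so the genotypes overlapped. Its mean was 224 ± 63.6 CPM in sinusoid-like, 134 ± 48.6 in other macrophage-like, 100 ± 46.6 in vessel-like and 81.2 ± 37.7 CPM in Kupffer-like nuclei (SD, n = 4). The spreads of the lower 3 overlapped, although Kupffer-like nuclei lay below other macrophage-like nuclei within each library. Mesenchymal-like (38.0 ± 11.9 CPM), mesothelial-like, T and NK-like, dendritic-like, B-like and cholangiocyte-like nuclei (15.5 ± 13.1 CPM) followed.

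Fcgr2b, the inhibitory Fc receptor, had 125 and 56.5 CPM in CKO and 147 and 150 CPM in WT sinusoid-like nuclei, and CKO replicate 2 (12 UMIs) was the low library. Sinusoid-like nuclei stood 1.254 ± 0.09 above macrophage-like nuclei on the log2(CPM + 10) scale in 4 of 4 libraries and 0.87 ± 1.28 above vessel-like nuclei in 3 of 4. The order of its means was sinusoid-like (120 ± 43.7 CPM), other macrophage-like (86.2 ± 28.0), vessel-like (64.7 ± 36.5), dendritic-like (59.0 ± 23.3) and then mesothelial-like, B-like and Kupffer-like nuclei (22.4 ± 10.7), with overlapping spreads between the first 4.

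Mrc1, the mannose receptor, had 361 and 282 CPM in CKO and 586 and 524 CPM in WT sinusoid-like nuclei. The genotypes did not overlap. Its mean in sinusoid-like nuclei, 438 ± 141 CPM, was within 1 SD of that in Kupffer-like nuclei, 433 ± 153 CPM, and macrophage-like nuclei as a whole averaged 358 ± 110 CPM. Within each library sinusoid-like nuclei stood above macrophage-like nuclei, by 0.27 ± 0.14 on the log2(CPM + 10) scale. Vessel-like nuclei averaged 241 ± 101, dendritic-like 114 ± 52.3, T and NK-like 100 ± 79.8 and cholangiocyte-like nuclei 49.0 ± 22.6 CPM.

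For 4 genes, Lyve1, Fcgr2b, Mrc1 and Oit3, the sinusoid-like level did not exceed the vessel-like level in CKO replicate 2, whose vessel-like class has 21 nuclei and 37051 UMIs. In the other 3 libraries it did for all 8 genes. Vessel-like nuclei were not free of sinusoid markers. The 8 such markers summed to 1188 to 1785 CPM there and to 1727 to 2919 CPM in sinusoid-like nuclei, with Gpr182 at 0 in vessel-like nuclei of CKO replicate 2.

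The share of nuclei with at least 1 UMI was compared after thinning each nucleus to 1000 UMIs, which left out no nucleus. Stab2 was found in 78.7% ± 7.2 of sinusoid-like nuclei (91.0% unthinned), 22.9% ± 6.8 of vessel-like nuclei (38.0%), 14.7% ± 3.6 of macrophage-like nuclei (28.6%) and 9.33% ± 3.0 of cholangiocyte-like nuclei (20.9%; SD, n = 4). Median depths were 1722 to 2209 UMIs in sinusoid-like and 1916 to 2841 UMIs in cholangiocyte-like nuclei. After thinning, Mrc1 was found in 32.9% of sinusoid-like, 28.2% of macrophage-like and 5.13% of cholangiocyte-like nuclei (53.8%, 46.6% and 12.1% unthinned). Stab1 was found in 19.7% of sinusoid-like, 9.69% of macrophage-like and 1.54% of cholangiocyte-like nuclei (33.4%, 17.3% and 4.19% unthinned). These 3 genes exceeded the cholangiocyte share in macrophage-like nuclei of all 4 libraries, thinned or not. In sinusoid-like and cholangiocyte-like nuclei after thinning, Dnase1l3 was found in 16.1% and 1.36%, Clec4g in 13.1% and 1.52%, Fcgr2b in 10.2% and 2.19%, Oit3 in 4.68% and 2.14%, and Lyve1 in 1.83% and 0.144%.

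Endothelial sub-clusters differed in these genes, Stab2 foremost. Among vessel-like sub-clusters of at least 30 nuclei, Stab2 had 749 CPM in the 275 nuclei led by Mecom, Vegfc and Jag1, 243 CPM in the 94 nuclei led by Col8a1, Dkk2 and Bmx, and 145 CPM in the 97 nuclei led by Rspo3 and Wnt9b, which mark the central vein. Mrc1 had 288, 171 and 102 CPM in the same order. In CKO replicate 1, WT replicate 1 and WT replicate 2 the Mecom group was the highest of the 3 for both genes. For Mrc1 in WT replicate 2 this was by less than 1 CPM (227.3 against 226.6). In CKO replicate 1 Stab2 was higher in the Rspo3 group (177 CPM) than in the Col8a1 group (149 CPM). The Col8a1 and Rspo3 groups held 8 and 35 nuclei in CKO replicate 1 and 12 and 8 in WT replicate 2. In CKO replicate 2 they held 1 and 2 nuclei, with no UMI of either gene, so no order is read there. Dnase1l3 had 80.4 CPM in the Mecom group and 3 UMIs in each of the other groups, and Stab1 had 117, 144 and 162 CPM. The 275 nuclei led by Mecom and the 97 led by Rspo3 also had all 8 sinusoid markers raised over the barcodes in the lowest 10% of UMIs. Sinusoid-like sub-clusters ranged over 1552 to 3279 CPM for Stab2, which was lowest in sub-cluster 5 in every library. Mrc1 ranged over 314 to 585 CPM, and its highest sub-cluster differed between libraries. Lyve1 had 38 UMIs in sub-cluster 7 (404 nuclei), at most 17 in any other sinusoid-like sub-cluster, and 22.7 and 30.3 CPM in CKO and 54.0 and 41.5 CPM in WT nuclei of sub-cluster 7. Each of these lay above the level of the whole sinusoid-like class in the same library, and in each library a smaller sub-cluster, on few UMIs, had a higher level. Sub-clusters were formed without the 8 genes, and their values pool the libraries unless given by library.

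**Figure D2:**
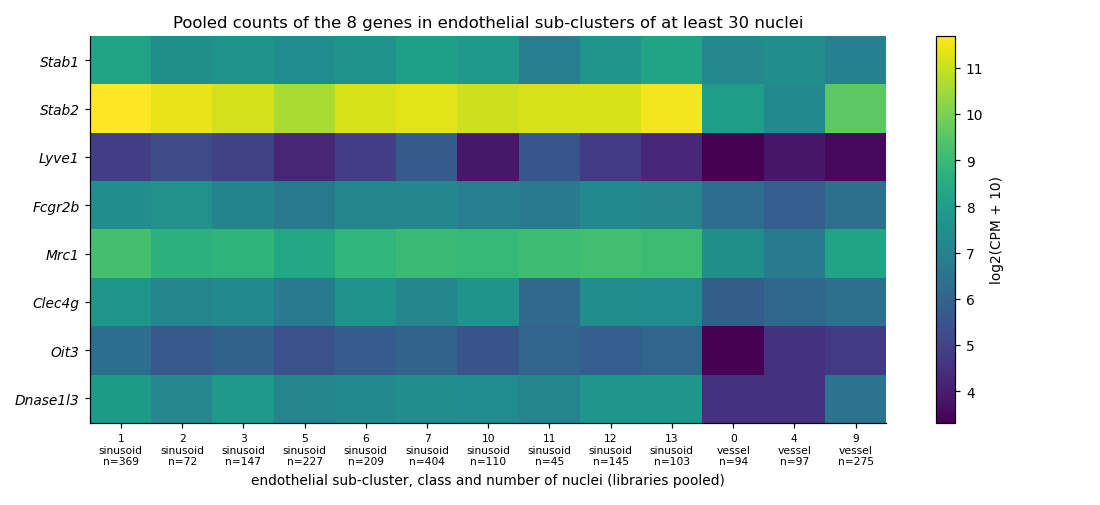
Level of the 8 genes (log2(CPM + 10), colour) in endothelial sub-clusters of at least 30 nuclei, libraries pooled, with the class and number of nuclei under each column. Stab2 is lower in the 3 vessel-like sub-clusters, of which sub-cluster 9 has the most, and Lyve1 has its highest pooled level, on 38 UMIs, in sub-cluster 7.

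Sinusoid-like nuclei were also split by zone, setting nuclei with a UMI of a pericentral marker such as Wnt2 or Kit, and of no periportal one, against those with a periportal marker such as Dll4 or Ltbp4 and no pericentral one. In pericentral nuclei Stab1 had 176 and 357 CPM in CKO and 323 and 183 CPM in WT, and in periportal nuclei 85.5 and 226 CPM in CKO and 246 and 194 CPM in WT. It was higher in pericentral nuclei in 3 of 4 libraries (mean difference 0.47 ± 0.44 on the log2(CPM + 10) scale, SD). The same held for Stab2 (0.25 ± 0.38), Clec4g (0.28 ± 0.33), Oit3 (0.34 ± 0.34) and Dnase1l3 (0.35 ± 0.52), whereas Lyve1, Fcgr2b and Mrc1 were higher in 2 of 4. No gene was higher in the same zone in all 4 libraries, and the smallest group held 18 nuclei.

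The macrophage-like classes divided the shared genes differently. Mrc1 had 316 and 292 CPM in CKO and 604 and 520 CPM in WT Kupffer-like nuclei, against 225 and 146 CPM in CKO and 323 and 177 CPM in WT other macrophage-like nuclei. It was higher in Kupffer-like nuclei of every library, by 0.95 ± 0.42 on the log2(CPM + 10) scale (SD, n = 4). Fcgr2b went the other way in every library, by -1.59 ± 0.64, with 34.4 and 8.59 CPM in CKO and 21.6 and 25.2 CPM in WT Kupffer-like nuclei, and 59.6 and 64.7 CPM in CKO and 114 and 106 CPM in WT other macrophage-like nuclei. Kupffer-like Fcgr2b was at a median of 1.12 times free RNA (0.62 to 2.15 over the libraries). Free RNA scaled to its share of these nuclei made up an estimated 33.0% to 107% of those counts. Stab1 was also lower in Kupffer-like nuclei of every library, by -0.71 ± 0.40, with 67.1 and 34.4 CPM in CKO and 114 and 110 CPM in WT Kupffer-like nuclei, and 89.8 and 97.1 CPM in CKO and 190 and 159 CPM in WT other macrophage-like nuclei. The CKO replicate 2 values of other macrophage-like nuclei rest on 33 nuclei and on 4 to 9 UMIs per gene. With libraries pooled, sub-clusters of the classes overlapped in Stab1 (71.5 to 160 CPM in Kupffer-like, 76.0 to 201 CPM in other macrophage-like). Those of Mrc1 overlapped too (271 to 589 CPM in Kupffer-like, 210 to 313 CPM in other macrophage-like). Sub-clusters did not overlap in Fcgr2b (8.60 to 47.6 CPM in Kupffer-like, 71.3 to 102 CPM in other macrophage-like).

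**Figure D3:**
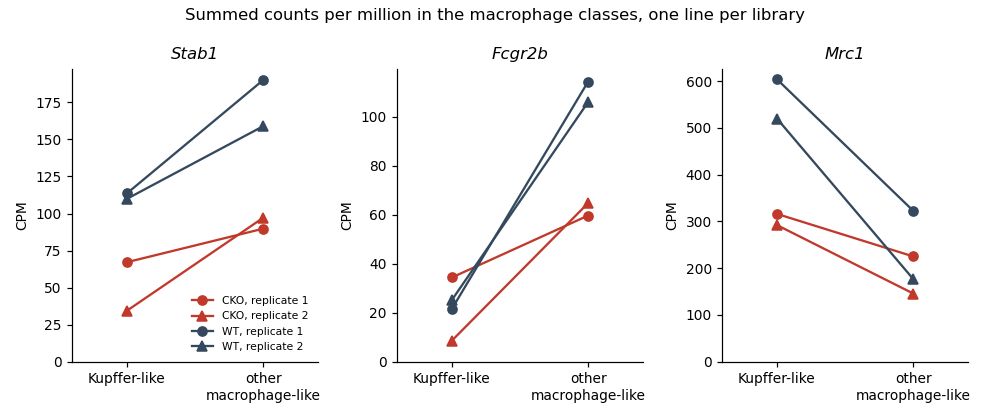
CPM of Stab1, Fcgr2b and Mrc1 in Kupffer-like (left) and other macrophage-like nuclei (right of each panel), with 1 line per library (CKO red, WT dark blue). The lines of Stab1 and Fcgr2b slope up and those of Mrc1 slope down in each library, and both CKO lines of Stab1 end below both WT lines.

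The genes with the most similar pattern were sought among all genes over 41 sums of a class in a library, which share libraries and free RNA, so the correlations are descriptions. Stab1 was most like Maf (Pearson r 0.92), a transcription factor, then Sash1 (0.83) and the macrophage scavenger receptor Msr1 (0.82). Mrc1 was most like Cd38 (0.86), Slc7a7 (0.85) and Maf (0.85). Stab2 was most like the endothelial receptors Flt4 (0.91) and Ptprb (0.90), both used to name classes, and Clec4g (0.90). Clec4g was most like Arhgef15 (0.92), Stab2 (0.90) and Erg (0.89), and Fcgr2b like Plxnc1 (0.82), Vav3 (0.81) and Plxnd1 (0.80). Dnase1l3 was most like Col13a1 (0.86), Kit and Tmem132e (both 0.85), Oit3 like Kit (0.77), Fam124a (0.76) and Tmem132e (0.73), and Lyve1 like Exoc3l (0.75), Gm46565 (0.71) and Dnase1l3 (0.70).

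The genotypes were compared in sinusoid-like nuclei with edgeR's quasi-likelihood test on counts summed per library, adjusted over all 8695 genes tested. No member passed an adjusted p under 0.05, and neither did any other gene (0% called, 383 genes at an unadjusted p under 0.05, 1 gene called by DESeq2). All 8 log2 changes were below 0, as were 49.5% of all genes, and 7 of the 8, with Stab1 the exception, had both CKO libraries below both WT libraries in CPM, as had 26.2% of all genes. None had both above, as 7.19% of all genes had. At an unadjusted p under 0.05, 1 of the 8 (Clec4g) was lower in CKO, against 1.58% of all genes, and none was higher, against 2.83%. The median of the 8 log2 changes was -0.42, against 0.005 over all genes tested. Clec4g had the most negative, -0.94 (SE 0.30, adjusted p = 0.999, edgeR), with means of 94.0 ± 13.4 CPM in CKO and 198 ± 1.5 CPM in WT (SD, n = 2 each). Mrc1 had -0.60 (SE 0.29, adjusted p = 0.999, edgeR), with 322 ± 55.4 CPM in CKO and 555 ± 44.2 CPM in WT. The others were Lyve1 (-0.62, SE 0.46), Oit3 (-0.45, SE 0.32), Fcgr2b (-0.40, SE 0.33), Stab2 (-0.39, SE 0.38), Dnase1l3 (-0.36, SE 0.31) and Stab1 (-0.08, SE 0.37).

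Libraries with the same replicate number were also set side by side, because the first replicates are the deeper ones. The log2 differences, CKO minus WT, were -0.96 and -0.85 for Clec4g, -0.53 and -0.30 for Stab2, -0.44 and -0.82 for Mrc1, -0.57 and -0.11 for Dnase1l3, -0.30 and -0.97 for Oit3 and -0.52 and -0.90 for Lyve1. For Stab1 (-0.70 and 0.46) and Fcgr2b (0.02 and -1.32) the signs differed. Without CKO replicate 2, which leaves 1 CKO library, the log2 change of Clec4g was -1.09. Over all alternative settings its change lay between -1.09 and -0.58. Over all genes, leaving out CKO replicate 1 gave 149 calls, leaving out CKO replicate 2 gave 251, and the same for the WT libraries gave 0 and 4. Without CKO replicate 1 the change was 0.46 for Stab1 and 0.02 for Dnase1l3.

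Marker lists differed between the same libraries. The 11 endothelial markers, none at 0 in any library, summed to 3868 and 4005 CPM in CKO and 6072 and 5250 CPM in WT sinusoid-like nuclei, and the 8 sinusoid markers, none at 0, to 1974 and 1727 CPM in CKO and 2919 and 2175 CPM in WT. The 8 hepatocyte markers, none at 0, summed to 42484 and 32053 CPM in CKO and 26535 and 26371 CPM in WT. The 13 macrophage markers summed to 737 and 165 CPM in CKO and 538 and 193 CPM in WT, with Csf1r, Mpeg1 and Ccr2 at 0 in CKO replicate 2 and Ccr2 at 0 in WT replicate 2. The 8 cholangiocyte markers summed to 739 and 409 CPM in CKO (Krt19 and Krt7 at 0 in CKO replicate 2) and 1058 and 794 CPM in WT. The 12 vessel markers summed to 275 and 141 CPM in CKO (Vwf, Gja5, Bmx and Ly6a at 0 in CKO replicate 2) and 412 and 310 CPM in WT (Gja5, Gja4, Bmx, Ly6a and Edn1 at 0 in WT replicate 2). Of these 6 lists the macrophage one overlapped between the genotypes, and so did the lymphatic, Kupffer, mesenchymal, T and NK and B lists. With the estimated free RNA subtracted, 7 of 8 changes were below 0 with a median of -0.24, and Clec4g had -0.81. With counts scaled to the endothelial markers, which moved the median of all genes to 0.37, the median of the 8 genes was -0.07, Clec4g had -0.58 and Stab1 0.23. The part of the marker levels in the result was otherwise not tested.

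In vessel-like nuclei 6 of the 8 genes had enough counts to be tested, Lyve1 and Oit3 being too low. edgeR called 4 of 4106 genes (0.0974%) and none of the 6 (unadjusted p 0.515 to 0.987). Changes were -0.43 (SE 0.64) for Dnase1l3, -0.19 (SE 0.52) for Clec4g, -0.05 (SE 0.41) for Stab1, 0.01 (SE 0.58) for Fcgr2b, 0.02 (SE 0.44) for Mrc1 and 0.14 (SE 0.42) for Stab2. For Dnase1l3 and Clec4g the fitted sign ran against the mean CPM, which was 67.2 ± 57.6 in CKO and 48.9 ± 20.2 in WT for Dnase1l3 and 52.0 ± 2.8 in CKO and 50.4 ± 38.6 in WT for Clec4g (SD, n = 2 each), so no direction is read for them. Stab2 had 351 and 729 CPM in CKO and 583 and 393 CPM in WT, so the CKO libraries lay outside the WT range on either side. None of the 6 had both CKO libraries below both WT libraries, as 23.9% of all genes had, or above both, as 10.9% had, and 3 of the 6 changes were below 0, against 50.4% of all genes. At an unadjusted p under 0.05 none was lower (2.51% of all genes) or higher (3.73%). CKO replicate 2, with 21 nuclei, was the high library for Stab2, Mrc1, Fcgr2b and Dnase1l3. Free RNA made up 81.3% and 93.0% of vessel-like UMIs in CKO and 69.6% and 71.5% in WT. The 12 vessel markers summed to 1075 and 486 CPM in CKO and 1850 and 1420 CPM in WT, with 7 of the 12 at 0 in CKO replicate 2, and the part of these levels in the values of that library was not tested. Without it the log2 change was -0.37 for Stab2 and -0.47 for Mrc1, and 99 genes were called. Leaving out CKO replicate 1 gave 16 calls, and the same for the WT libraries gave 3 and 9.

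In macrophage-like nuclei edgeR called 0 of 12011 genes (0%, 678 at an unadjusted p under 0.05, 4 called by DESeq2) and so none of the 8. Stab1 had 74.8 and 47.5 CPM in CKO and 141 and 129 CPM in WT, with no overlap, and a log2 change of -0.86 (SE 0.25, adjusted p = 0.755, edgeR). Its change was below 0 in each replicate number (-0.60 and -1.36), with each library left out, in Kupffer-like nuclei alone (-0.77) and in other macrophage-like nuclei alone (-0.84), and the adjusted p with a library left out lay between 0.0771 and 0.9999 (edgeR). Mrc1 had 285 and 261 CPM in CKO and 502 and 385 CPM in WT, also without overlap, and a change of -0.50 (SE 0.25, adjusted p = 0.931, edgeR). Fcgr2b had 43.0 and 20.4 CPM in CKO and 55.1 and 57.0 CPM in WT and a change of -0.39 (SE 0.30), but 0.58 (SE 0.42) in Kupffer-like nuclei alone. There the mean CPM was 21.5 ± 18.2 in CKO and 23.4 ± 2.5 in WT (SD, n = 2 each), CKO replicate 2 resting on 2 UMIs, so no direction is read in Kupffer-like nuclei. For 4 of the 8 genes, Stab1, Mrc1, Fcgr2b and Lyve1, both CKO libraries lay below both WT libraries, as for 27.5% of all genes, and for none did both lie above, as for 6.43%. Of the 8 changes 4 were below 0, against 49.9% of all genes. At an unadjusted p under 0.05, 1 of the 8 (Stab1) was lower in CKO, against 2.25% of all genes, and none was higher, against 3.4%. The median of the 8 changes was -0.17, against 0.001 over all genes. Stab2, at a median of 1.62 times free RNA here (0.89 to 2.71 over the libraries), had a change of 0.10. Clec4g, Oit3 and Dnase1l3, close to free RNA here, had changes of 0.31, 0.34 and 0.05. For 3 genes, Stab2, Clec4g and Oit3, the fitted sign ran against the mean CPM. That mean was 165 in CKO and 179 in WT for Stab2 and 12.3 in CKO and 13.4 in WT for Clec4g. For Oit3 it was 3.25 in CKO and 5.24 in WT. No direction is read for these 3 genes.

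The macrophage-like class differed between the libraries in its make-up. Kupffer-like nuclei were 66.2% and 79.0% of it in CKO and 63.3% and 60.4% in WT. Free RNA made up 76.9% and 77.8% in CKO and 66.6% and 71.9% in WT, and the 13 macrophage markers, none at 0, summed to 2168 and 1901 CPM in CKO and 2731 and 1988 CPM in WT. The 11 endothelial markers, none at 0, summed to 445 and 305 CPM in CKO and 515 and 271 CPM in WT. The 8 hepatocyte markers, none at 0, summed to 40095 and 29829 CPM in CKO and 24227 and 24878 CPM in WT, and the 8 cholangiocyte markers, with Cftr at 0 in CKO replicate 2, to 744 and 387 CPM in CKO and 1009 and 754 CPM in WT. With free RNA subtracted Stab1 had -0.98 and Mrc1 -0.47, and the part of these levels in the Stab1 and Mrc1 differences was otherwise not tested. Over all genes, 52 were called when CKO replicate 1 was left out and 626 when CKO replicate 2 was, against 0 and 32 when WT replicate 1 or WT replicate 2 was.

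**Figure D4:**
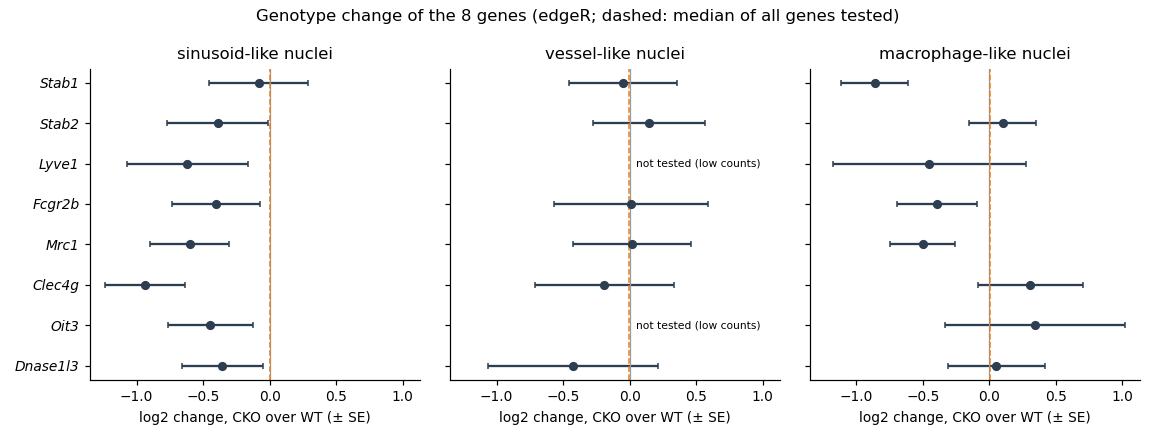
Log2 change of each gene, CKO over WT, with its standard error from edgeR, in sinusoid-like, vessel-like and macrophage-like nuclei. The dashed line is the median of all genes tested in the class. The 8 points in sinusoid-like nuclei lie left of it, between -0.94 for Clec4g and -0.08 for Stab1, and in macrophage-like nuclei Stab1 lies farthest left at -0.86.

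Whether the genotype difference of a gene differed between classes was tested as an interaction, with library as a term. Between sinusoid-like and vessel-like nuclei none of the 7 members tested passed (0 of 6144 genes, 0%, 215 at an unadjusted p under 0.05, edgeR), with differences of the log2 changes between -0.73 (Clec4g, SE 0.47) and 0.21 (Oit3, SE 1.004). Between sinusoid-like and macrophage-like nuclei 13 of 10477 genes passed (0.124%) and none of the 8. Clec4g had a more negative change in sinusoid-like nuclei, by -1.25 (SE 0.33, adjusted p = 0.0735, edgeR), as had Stab2, by -0.52 (SE 0.15, adjusted p = 0.128, edgeR). Without CKO replicate 2 the Clec4g difference was -1.46. Without CKO replicate 1, which leaves 2 CKO UMIs in macrophage-like nuclei, it was 0.23 (SE 1.11). Each of these fits has 1 CKO library. Mrc1 had -0.003 (SE 0.19) and Stab1 0.36 (SE 0.24). The macrophage-like counts of Clec4g were at the level of free RNA, so this interaction sets its sinusoid-like change beside that of free RNA. For Stab2, free RNA made up an estimated 28.7% to 82.2% of the macrophage-like counts over the libraries. No direction is read for Stab2 in macrophage-like nuclei, so its interaction compares fitted changes only.

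Other genes of uptake, in 5 lists chosen with earlier results of these data known, did not pass in any class. In sinusoid-like nuclei 11 of 18 other scavenger receptors could be tested, with 5 changes below 0 and a median of 0.05. Their smallest p belonged to Lrp1, an endocytic receptor of the LDL receptor family (0.78, SE 0.28, 238 and 155 CPM in CKO and 152 and 113 CPM in WT), and Axl, a receptor for dying cells (0.94, SE 0.43). Lectin and Fc receptors had 4 of 9 tested changes below 0, among them Clec1b, a C-type lectin (-0.76, SE 0.36, 43.0 and 14.1 CPM in CKO and 75.3 and 56.7 CPM in WT). The asialoglycoprotein receptor chain Asgr2, a hepatocyte gene, had 0.90 (SE 0.28, 108 and 113 CPM in CKO and 70.7 and 63.4 CPM in WT). Endocytic and lysosomal genes had 5 of 22 below 0 and a median of 0.11, the lysosomal proteins Ctsb (0.51) and Psap (0.47) being those named. Of the hyaluronan genes 4 of 10 were tested, with Cemip2, a cell-surface hyaluronidase, at -0.40 and Habp2, a plasma protease that binds hyaluronan, at 0.48. Of the other nucleases 6 of 9 were tested, none below 0, with Pld4 at 0.53 and Dnase2b at 0.41.

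In macrophage-like nuclei the same lists had medians of 0.02 (16 of 18 scavenger receptors tested), 0.09 (14 of 19 lectin and Fc receptors), 0.07 (22 of 22 endocytic and lysosomal genes), 0.33 (6 of 10 hyaluronan genes) and -0.07 (6 of 9 nucleases). Marco, a scavenger receptor of Kupffer cells, had the smallest p of the listed genes (log2 change 2.13, SE 0.44, adjusted p = 0.48, edgeR). Marco had 113 and 27.1 CPM in CKO and 23.0 and 20.8 CPM in WT. CKO replicate 1 stood far above the other 3 libraries, and without it the change was 0.62. Marco passed without CKO replicate 2 (adjusted p = 1.94e-20, edgeR) and without WT replicate 2 (adjusted p = 0.00304, edgeR). The others named in their lists were Cxcl16 (-0.51), Asgr1 (0.67), Clec2d (0.75), Rab5c (0.43), Ctss (-0.36), Hyal2 (0.81), Habp2 (0.50), Dnase2b (0.73) and Dnase1l1 (-0.40). In vessel-like nuclei 8 scavenger receptors, 4 lectin and Fc receptors, 20 endocytic and lysosomal genes and 3 hyaluronan genes could be tested, with medians of 0.37, 0.28, 0.19 and 0.41, and none of the nucleases.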

How the data were processed

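The 4 libraries were made from formaldehyde-fixed nuclei with a 10x 3′ kit, per the labels' protocols, and the authors deposited raw UMI counts per gene and barcode, made with Cell Ranger 5.0.1 on mm10, per the submitters' processing notes. Whether introns or strand entered the counting is not given in the sources used here. The 7 added sequences of the tables were not used. The members and gene lists were chosen with earlier results of these data known.

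Every barcode had at least 500 genes. The doublet score removed 0.8% of barcodes per 1000 in a library, which left 39017 of 43664. Counts were scaled to 10000 per barcode, and 2000 variable genes without the 8 members gave 30 principal components, 15 neighbours and 22 Leiden clusters at resolution 1 (scanpy 1.11.5, leidenalg 0.10.2, Python 3.11.15). A cluster was named from at least 3 markers raised 1.5 times over the barcodes in the lowest 10% of UMIs. Endothelial and macrophage nuclei were clustered again on library-centred values. A hepatocyte name was not among those the rule could give, so any hepatocyte clusters stayed unnamed. Unnamed barcodes were left out of the comparisons. Those that gave the free RNA profile can therefore include hepatocyte nuclei.

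Counts were summed per library and class and tested with edgeR 4.0.16 in R 4.3.3 (filterByExpr, TMM, quasi-likelihood, two-sided, Benjamini-Hochberg over all genes tested), without a replicate block. Libraries with the same number correlated in their deviations from the group means by 0.113 in sinusoid-like, 0.064 in vessel-like and 0.115 in macrophage-like nuclei, with 2 pairs. The script was tested on simulated data. DESeq2 1.42.0 was an alternative, and the others were RLE scaling, no count filter, the block, doublets kept, resolution 2, at least 1000 UMIs, classes by marker UMIs, free RNA subtracted and each library left out. Scaling to class markers and Kupffer-like or other macrophage-like nuclei alone were added after seeing the data. Levels used a prior of 10 CPM, and shares were thinned to 1000 UMIs. Besides the members in each class, the text names of each list the genes with the 2 smallest p in sinusoid-like and in macrophage-like nuclei, and the 3 genes most correlated with each member among those with at least 50 UMIs. Intervals are exact 95% ones and cover counting error only.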

Additional observations from a re-analysis of the deposited data

Results flagged for a closer look

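An endothelial sub-cluster of 13 nuclei, led by Csmd1 and Mmrn1, met the lymphatic-like name with 4 of 5 lymphatic markers raised and was used in no comparison. In it 4 of the 8 sinusoid markers were also raised over the barcodes in the lowest 10% of UMIs. It held 1 nucleus of CKO replicate 1 and none of CKO replicate 2, and 7 nuclei of WT replicate 1 and 5 of WT replicate 2, so no genotype comparison was made. Of its 31569 UMIs, 53 were of Stab2 (1679 CPM, 95% Poisson interval 1258 to 2196), where the unscaled level of free RNA would give 5.79. Mrc1 had 16 UMIs (507 CPM, 290 to 823), where free RNA would give 3.36, and Stab1 had 12 UMIs (380 CPM, 196 to 664), where it would give 1.05. Lyve1, known from lymphatic vessels, had 2 UMIs, both in the CKO nucleus, which had none of Stab2 or Mrc1. Fcgr2b had 1 UMI. Clec4g, Oit3 and Dnase1l3 had none, which allows up to 95.03 CPM (3 counts). These signals lie outside the classes compared in the report, and their intervals cover counting error only.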

How the results depend on the processing

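The number of genes called moved with settings in each class, and the cause was not tested. In sinusoid-like nuclei, with 0 called, it was 52 with no count filter, 1 by DESeq2 and 0 to 251 with a library left out. In vessel-like nuclei, with 4 called, it was 13 with no count filter, 1 at resolution 2, 0 by marker UMIs, 0 with free RNA subtracted, 0 by DESeq2 and 3 to 99 with a library left out. In macrophage-like nuclei, with 0 called, it was 147 with no count filter, 4 by DESeq2, 34 in other macrophage-like nuclei alone and 0 to 626 with a library left out. The replicate block gave 111 calls in macrophage-like, 0 in sinusoid-like and 4 in vessel-like nuclei, called none of the 8 genes and called Marco (adjusted p = 3.81e-06, edgeR); with 2 pairs of weak correlation the libraries share only a number. With doublets kept, the interaction calls were 2 between sinusoid-like and vessel-like and 1 between sinusoid-like and macrophage-like nuclei, marker UMIs gave 1 for the second contrast, and leaving out a library gave 0 to 4 and 2 to 25.

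The median log2 change of the 8 genes in sinusoid-like nuclei was -0.070 when scaled to class markers, the setting that also moved the median of all genes. With a library left out the medians cover only the members that could be tested. They were -0.62 to -0.45 in sinusoid-like nuclei (7 or 8 members) and -0.29 to 0.75 in vessel-like nuclei (3 or 6). In macrophage-like nuclei they were -0.65 to -0.13 (6 or 8 members). The median level difference between sinusoid-like and macrophage-like nuclei was 3.03 with free RNA subtracted (1.52 to 1.64 with a library left out), and that between sinusoid-like and vessel-like nuclei 0.96 to 1.54.

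Signs that turned belonged to uncalled changes. In sinusoid-like nuclei Stab1 had 0.00037 with free RNA subtracted, 0.23 under marker scaling and -0.66 to 0.46 with a library left out, Dnase1l3 -0.63 to 0.019 and Ctsb -0.25 to 0.96 with a library left out. In vessel-like nuclei Stab1 had 0.24 with doublets kept, 0.10 at resolution 2, 0.30 with free RNA subtracted, 0.32 under marker scaling and -1.03 to 0.54 with a library left out. Stab2 there had -0.0050 with no count filter, -0.0066 with doublets kept, -0.56 at resolution 2, -0.36 by marker UMIs and -0.37 to 0.75 with a library left out. Mrc1 there had -0.039 with no count filter, -0.00037 with the replicate block, -0.34 with doublets kept, -0.43 at resolution 2 and -0.47 to 0.94 with a library left out. Fcgr2b there had -0.20 to -0.12 with a library left out, Clec4g 0.057 by DESeq2 and 0.17 under marker scaling, and Dnase1l3 0.19 by DESeq2. In macrophage-like nuclei Stab2 had -0.037 with free RNA subtracted, -0.11 in Kupffer-like nuclei alone and -0.10 to 0.32 with a library left out. Fcgr2b had 0.58 and Dnase1l3 -0.055 in Kupffer-like nuclei alone, Dnase1l3 -0.0076 by marker UMIs and -0.069 to 0.57 with a library left out, Oit3 -0.15 by DESeq2 and Dnase2b -0.25 in other macrophage-like nuclei alone. With a library left out, Clec4g had -0.81 to 0.56, Clec2d -0.00058 to 1.35 and Habp2 -0.25 to 0.72 there. The interaction with macrophage-like nuclei was -1.93 to 0.23 for Clec4g and -0.0061 to 1.58 for Stab1, and that with vessel-like nuclei -1.02 to 1.64 for Stab1. Of the listed genes Lrp1, Ctsb and Asgr1 passed without CKO replicate 2 and Clec2d without CKO replicate 1 (adjusted p 0.0338 to 0.0482, edgeR), and Marco with no count filter. A minimum of 1000 UMIs removed no nucleus. Where 1 genotype had a single library, that library was assumed to vary like the others. CKO replicate 2 limits the depth, with 21 vessel-like and 118 sinusoid-like nuclei.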
